A study of Mus musculus with 14 samples.

Results

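The transcripts described here are 8 genes of the red cell lineage, chosen by name, in the lungs of 6-day-old mice (P6): Alas2, Tspo2, Slc4a1, Epb42, Rhag, Ank1, Klf1 and Gata1. These 8 were chosen with earlier results of these data known. Each had 1 probe set, an Entrez gene number followed by "_at", among the 21212 of the Affymetrix mouse Gene ST array, so all 8 were measured and no filter on dim signal was applied to them. The 14 arrays, 1 per lung and 100 ng of total RNA each, held 4 Atxn1L -/- lungs with 4 wild types (WT), and 3 Atxn1 -/- lungs with 3 WT, all P6 and of strain C57BL/6J. Parents of each set were heterozygous for the gene concerned. The series' design text gives both sets of pairs the same genotype, so groups were taken from the sample titles and genotype labels. The whole lung was the material, and the labels do not say whether blood was flushed from it. In such bulk samples fewer cells of a type and less RNA per cell cannot be told apart.

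Red cells arise from progenitors in which the factors Gata1 and Klf1 switch on globins, heme synthesis and the red cell membrane. Immature red cells still carry these messenger RNAs when they enter the blood, and mature mammalian red cells have lost the nucleus. A lung full of blood is therefore a tissue in which erythroid transcripts can be read. Gata1 is also expressed in megakaryocytes, mast cells and eosinophils. The proteins made by Atxn1 and its relative Atxn1L bind the repressor Capicua, and the arrays compared lungs lacking either with their own controls.

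The deposited values were log2 levels after RMA, computed apart for the 8 arrays of the Atxn1L set and the 6 of the Atxn1 set, so a level was compared only within its set. The median of an array was 8.44 to 8.53 among the Atxn1L arrays and 9.21 to 9.24 among the others. Each array correlated across genes with its closest neighbour at r of 0.994 to 0.998. Xist, expressed from the inactive X of females, was low on 1 of 4 Atxn1L KO arrays and 2 of 4 of their WT, and on 1 of 3 Atxn1 KO arrays and 2 of 3 of their WT. Alas2 and Gata1 lie on the X chromosome. Of 8 lung markers such as Sftpc and Scgb1a1, none passed the test in either knockout, with log2 changes of -0.05 to 0.13 in the Atxn1L KO and -0.04 to 0.08 in the Atxn1 KO.

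In the Atxn1L knockout the erythroid genes showed no common direction. Alas2 lay lower and Rhag higher than in WT by the lowest unadjusted p values of the group, and 4 of 8 changes were above 0 with a median log2 change of 0.03. In the Atxn1 knockout 7 of 8 lay above 0 with a median of 0.20, led by the membrane genes Slc4a1 and Epb42. limma called none of the 8 in either knockout at an adjusted p under 0.05, over all 21212 probe sets. By the same rule limma called 0.0424% of all probe sets in the Atxn1L KO and 0% in the Atxn1 KO. Without adjustment, p was under 0.05 for Alas2 and Rhag in the Atxn1L KO, or 2 of 8 against 8.5% of all probe sets. The same held for Slc4a1 and Epb42 in the Atxn1 KO, or 2 of 8 against 1.22%. These 2 genes varied together in that set (Pearson r 0.87, group means removed). As the 8 genes were chosen with earlier results known, such shares, here and below, are descriptions only. Other gene lists, described below, also held genes of unadjusted p under 0.05. In the Atxn1 KO 3 of 9 mast cell genes were higher and 1 lower by this measure. In the Atxn1L KO 5 of 8 neutrophil genes were higher, while 0 of 10 heme synthesis and transport genes passed in either knockout. The median over all probe sets was 0.00 in both knockouts, and 51.3% of all probe sets were above 0 in the Atxn1L KO and 47.3% in the Atxn1 KO.

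**Figure D1:**
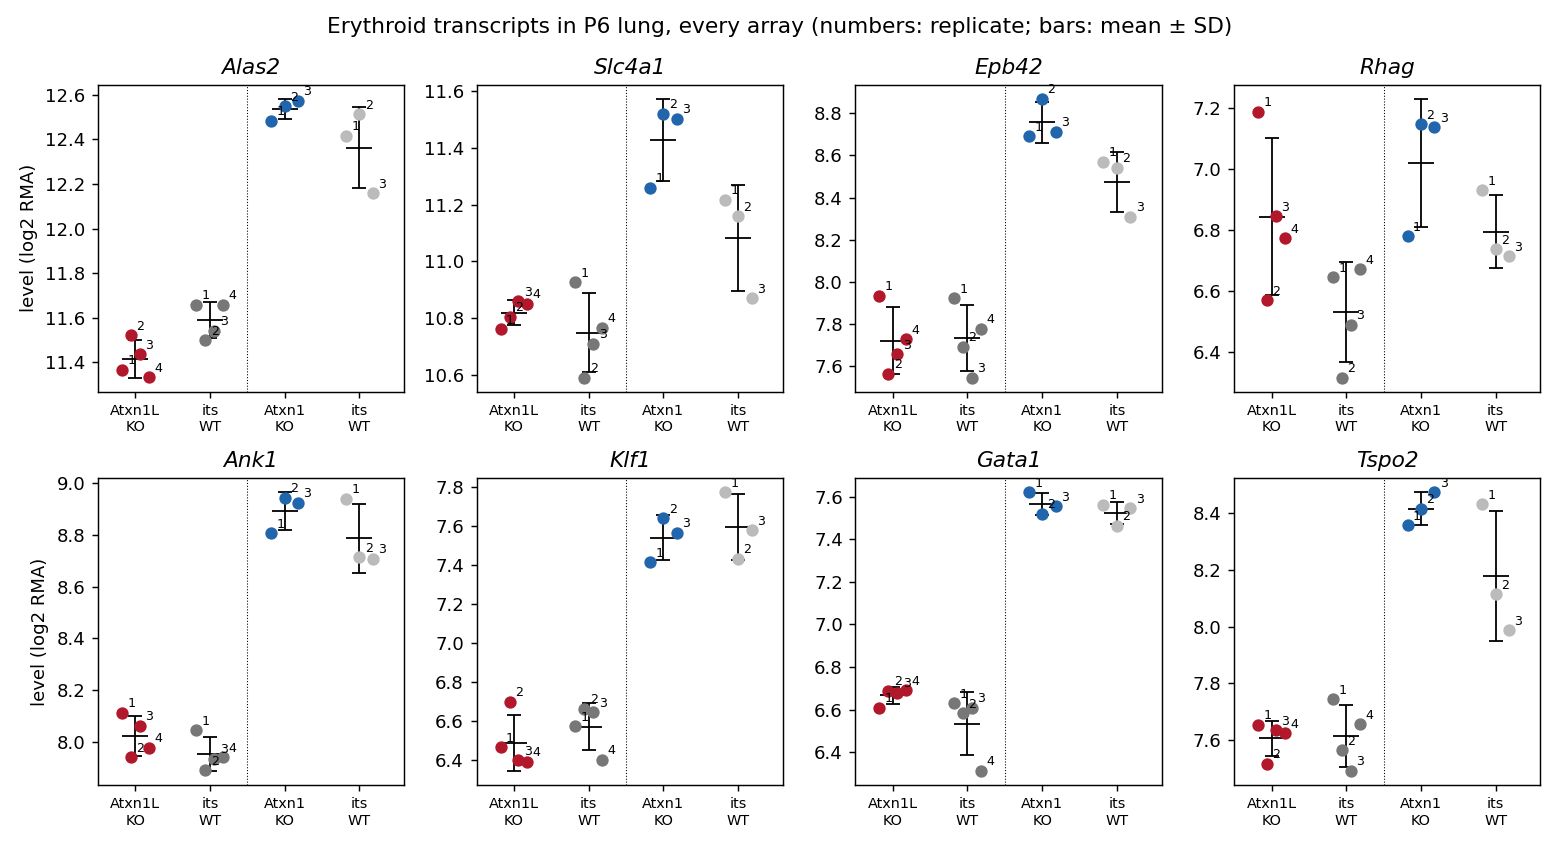
Level (log2 RMA, vertical axis, a separate scale for each gene) of the 8 erythroid transcripts on every array, by group, with the replicate number beside each dot and bars for mean ± SD. The step between the left and right of each panel lies between separately normalized sets and differs by gene. Its cause was not tested. Knockout and WT arrays are separate only for Slc4a1 and Epb42 in the Atxn1 set.

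Alas2 encodes the erythroid form of the first enzyme of heme synthesis (Entrez gene 11656; GRCm38.p6 chrX:150547417-150570622). Its log2 levels were 11.37, 11.52, 11.44 and 11.33 in the Atxn1L KO lungs, against 11.66, 11.50, 11.54 and 11.66 in their WT. Only KO replicate 2 reached into the WT range, and the other three knockouts lay below every WT. The means were 11.42 ± 0.08 in KO and 11.59 ± 0.08 in WT (SD, n = 4 each), a log2 change of -0.18 (SE 0.06, limma adjusted p = 0.479), or 1.13-fold lower. In the Atxn1 set Alas2 was at 12.48, 12.55 and 12.57 in KO lungs, against 12.42, 12.51 and 12.16 in WT. Here WT replicate 3 was the low array, and 2 of 3 knockouts lay above every WT. The change was 0.17 (SE 0.09, limma adjusted p = 1.00), and 0.07 without WT replicate 3. The difference between both effects was -0.35 (SE 0.11, 95% interval -0.58 to -0.11), the largest of the 8 in size (limma adjusted p = 1.00).

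Tspo2 encodes an erythroid relative of the mitochondrial translocator protein (Entrez gene 70026; chr17:48447942-48451564). It had levels of 7.65, 7.52, 7.63 and 7.62 in Atxn1L KO lungs, against 7.74, 7.56, 7.49 and 7.66 in WT. The knockouts lay inside the range of the WT, with a log2 change of -0.01 (SE 0.06, limma adjusted p = 0.989). In the Atxn1 set it was at 8.36, 8.42 and 8.48 in KO, against 8.43, 8.11 and 7.99 in WT. WT replicate 1 was as high as the knockouts and the other two WT were lower. The change was 0.24 (SE 0.11, limma adjusted p = 1.00), 0.37 without WT replicate 1 and 0.14 without WT replicate 3.

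Slc4a1 encodes the band 3 anion exchanger, the main transport protein of the red cell membrane (Entrez gene 20533; chr11:102348820-102365281). Its levels in Atxn1 KO lungs were 11.26, 11.52 and 11.50, against 11.22, 11.16 and 10.87 in WT. All knockouts lay above all WT, though KO replicate 1 did so narrowly. The log2 change was 0.35 (SE 0.11, limma adjusted p = 1.00), a 1.27-fold higher level at 11.43 ± 0.15 in KO and 11.08 ± 0.19 in WT (SD, n = 3 each). In the Atxn1L set Slc4a1 was at 10.76, 10.80, 10.86 and 10.85 in KO, against 10.93, 10.59, 10.71 and 10.77 in WT. The knockouts were close together inside the wider WT range, and the change was 0.07 (SE 0.07, limma adjusted p = 0.843).

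Epb42 encodes the protein that helps hold band 3 to the membrane skeleton (Entrez gene 13828; chr2:121017891-121036877). In the Atxn1 set it had 8.69, 8.87 and 8.71 in KO, against 8.57, 8.54 and 8.31 in WT. The groups did not overlap here either. Its log2 change was 0.28 (SE 0.09, limma adjusted p = 1.00), at 8.76 ± 0.10 in KO and 8.47 ± 0.14 in WT (SD, n = 3 each). In the Atxn1L set the levels were 7.94, 7.57, 7.66 and 7.73 in KO, against 7.92, 7.69, 7.55 and 7.78 in WT. Both groups spanned the same range, with a change of -0.01 (SE 0.10, limma adjusted p = 0.984). Slc4a1 and Epb42 were thus 2 of 8 genes with every Atxn1 KO array above every WT, against 2.85% of all probe sets, and 0 of 8 lay wholly below, against 1.9%. In the Atxn1L set 0 of 8 were separate in either direction, against 2.76% of all probe sets above and 2.56% below.

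Rhag encodes the glycoprotein that carries the Rh complex and conducts ammonia and gas across the membrane (Entrez gene 19743; chr17:40811099-40844094). It was at 7.19, 6.57, 6.85 and 6.77 in Atxn1L KO lungs, against 6.65, 6.32, 6.49 and 6.67 in WT. KO replicate 1 stood highest and KO replicate 2 lay among the WT. The log2 change was 0.31 (SE 0.13, limma adjusted p = 0.546), and 0.20 without KO replicate 1, at 6.84 ± 0.26 in KO and 6.53 ± 0.16 in WT (SD, n = 4 each). In the Atxn1 set the levels were 6.78, 7.15 and 7.14 in KO, against 6.93, 6.74 and 6.71 in WT. KO replicate 1 lay within the WT range, and the change was 0.23 (SE 0.11, limma adjusted p = 1.00), or 0.35 without that array. Within groups Rhag had a larger SD than 95.2% of all probe sets in the Atxn1L set, at 0.22, and than 87.4% in the Atxn1 set, at 0.17.

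Ank1 encodes the red cell ankyrin, which ties band 3 to spectrin and is also found in muscle and brain (Entrez gene 11733; chr8:22974836-23150501). Its levels were 8.11, 7.94, 8.06 and 7.98 in Atxn1L KO, against 8.04, 7.89, 7.93 and 7.94 in WT. The groups overlapped, with a log2 change of 0.07 (SE 0.06, limma adjusted p = 0.794). The Atxn1 KO lungs had 8.81, 8.94 and 8.92, against 8.94, 8.71 and 8.71 in WT, a change of 0.10 (SE 0.08, limma adjusted p = 1.00). WT replicate 1 equalled the highest knockouts, and without it the change was 0.18. The change was 0.07 without WT replicate 2 and 0.06 without WT replicate 3.

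Klf1, the factor that binds CACCC boxes of globin and other red cell genes (Entrez gene 16596; chr8:84901982-84905291), had a log2 change below 0 in both knockouts. Its levels were 6.46, 6.70, 6.40 and 6.39 in Atxn1L KO, against 6.57, 6.66, 6.65 and 6.40 in WT. They were 7.41, 7.64 and 7.57 in Atxn1 KO, against 7.77, 7.43 and 7.58 in WT. The groups overlapped in both sets, with changes of -0.08 (SE 0.08, limma adjusted p = 0.850) and -0.05 (SE 0.10, limma adjusted p = 1.00). Gata1, the zinc finger factor of red cells, megakaryocytes and mast cells (Entrez gene 14460; chrX:7959260-7976663), was at 6.61, 6.69, 6.68 and 6.69 in Atxn1L KO, against 6.63, 6.58, 6.61 and 6.31 in WT. WT replicate 4 lay well below the other arrays. The change was 0.13 (SE 0.07, limma adjusted p = 0.661), and 0.06 without that array. In the Atxn1 set Gata1 had 7.62, 7.52 and 7.56 in KO, against 7.56, 7.46 and 7.55 in WT, a change of 0.04 (SE 0.05, limma adjusted p = 1.00).

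**Figure D2:**
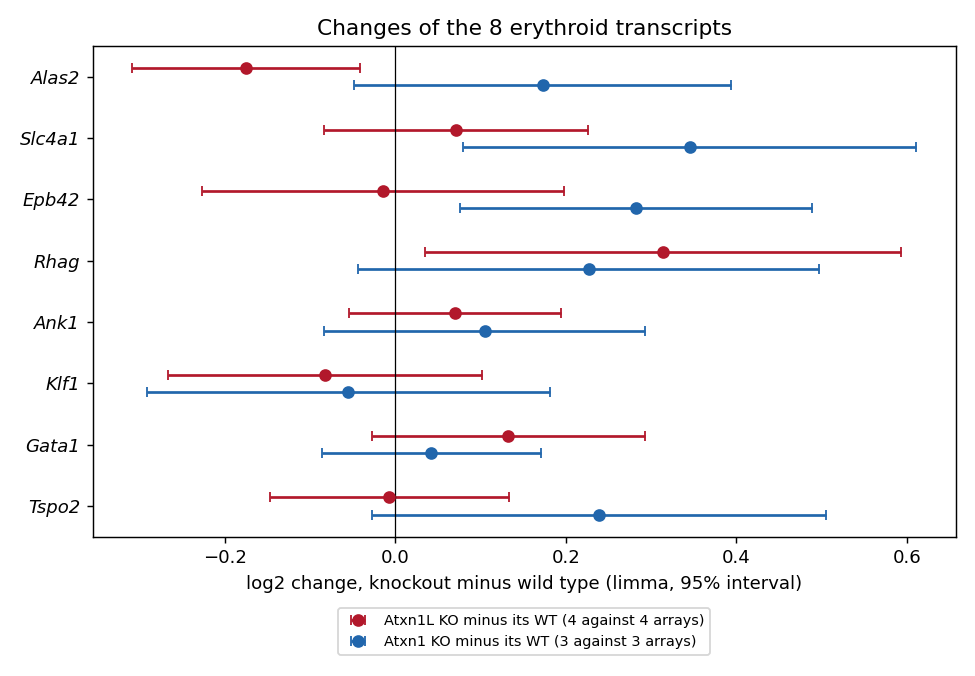
Log2 change (knockout minus WT, horizontal axis) of each erythroid transcript with its 95% limma interval, in the Atxn1L KO and the Atxn1 KO. Intervals leave out 0 for Alas2 and Rhag in the Atxn1L KO and for Slc4a1 and Epb42 in the Atxn1 KO, before any adjustment over 21212 probe sets.

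The knockouts' effects on these genes were also set against each other in 1 fit over the 14 arrays. None of the 8 differences passed (limma, smallest adjusted p = 1.00), and the same test called 0.00943% of all probe sets. Without adjustment, p was under 0.05 for Alas2 alone, or 1 of 8 against 3.24% of all probe sets. The difference was above 0 for Rhag and Gata1, or 2 of 8 against 53.5%. The intervals are wide: the difference, Atxn1L minus Atxn1, was -0.27 (95% interval -0.56 to 0.01) for Slc4a1, -0.30 (-0.60 to 0.01) for Epb42 and -0.25 (-0.52 to 0.03) for Tspo2. For Rhag it was 0.09 (-0.32 to 0.50).

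The array of WT replicate 3 moved with the Atxn1 result. It had the lowest mean of the 8 genes in its set, at 8.73, against 8.93, 9.08 and 9.06 in the knockouts and 8.98 and 8.83 in the other WT. Without it the median change was 0.11, against 0.20 with it, and the changes of Slc4a1 and Epb42 were 0.24 and 0.20. The same array was the only WT of high Xist in its set and had a mean level of 8 neutrophil genes of 11.54, against 9.62 to 9.94 in the knockouts and 9.32 and 9.41 in the other WT. Among arrays of low Xist, 1 KO against 2 WT, Slc4a1 differed by 0.07 and Epb42 by 0.13. Among arrays of high Xist, 2 KO against 1 WT, they differed by 0.64 and 0.48. The part of sex or of neutrophil content in these values was not tested. In the Atxn1L set KO replicate 1 had the highest Rhag and also the highest mean of neutrophil genes, 11.14, against 9.21 to 9.63 in the other knockouts and 8.42 to 9.28 in WT.

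Gata1 and Klf1 act at short sequences near the genes they switch on, so the start regions of the members are shown beside how the genes varied together. RefSeq promoters (GRCm38.p6, 250 bases before to 50 after the start) were at hand for 6 of the 8 genes. The 4 below are those of the heme gene Alas2, of 2 membrane genes whose levels varied together, and of Gata1. Over the 14 arrays, with group means removed, Gata1 had a Pearson r of -0.42 with Rhag and -0.28 with Epb42. Capitals mark matches on either strand to a GATA site (AGATAA or AGATAG, with A or T allowed as the first letter) or to the Klf-type motif CCNCNCCC, and overlapping matches run together. The regions are chrX:150547167-150547466 (plus strand) for Alas2, chr2:121036828-121037127 (minus strand) for Epb42, chr17:40810899-40811198 (plus strand) for Rhag and chrX:7967861-7968160 (minus strand) for Gata1.
Alas2: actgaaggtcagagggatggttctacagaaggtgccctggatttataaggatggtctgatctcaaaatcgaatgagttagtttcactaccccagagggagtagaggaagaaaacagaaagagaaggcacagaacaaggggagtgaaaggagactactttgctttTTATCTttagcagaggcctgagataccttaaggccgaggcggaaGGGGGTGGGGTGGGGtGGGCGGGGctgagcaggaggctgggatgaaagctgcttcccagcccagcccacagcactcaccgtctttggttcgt
Epb42: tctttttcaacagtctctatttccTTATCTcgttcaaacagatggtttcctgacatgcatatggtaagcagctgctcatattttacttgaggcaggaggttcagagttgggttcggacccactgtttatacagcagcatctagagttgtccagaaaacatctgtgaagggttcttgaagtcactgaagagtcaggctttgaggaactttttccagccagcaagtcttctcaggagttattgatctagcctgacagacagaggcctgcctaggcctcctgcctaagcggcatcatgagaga
Rhag: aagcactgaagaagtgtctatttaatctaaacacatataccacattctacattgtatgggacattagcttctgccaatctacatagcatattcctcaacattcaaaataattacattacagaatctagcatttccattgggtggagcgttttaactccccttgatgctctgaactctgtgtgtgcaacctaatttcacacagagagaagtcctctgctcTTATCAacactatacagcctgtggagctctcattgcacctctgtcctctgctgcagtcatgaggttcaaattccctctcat
Gata1: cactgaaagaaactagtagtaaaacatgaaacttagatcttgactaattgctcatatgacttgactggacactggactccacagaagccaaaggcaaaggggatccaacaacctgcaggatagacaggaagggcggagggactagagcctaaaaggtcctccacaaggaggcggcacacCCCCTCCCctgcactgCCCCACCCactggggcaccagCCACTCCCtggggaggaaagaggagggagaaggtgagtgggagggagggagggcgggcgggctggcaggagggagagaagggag

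Alas2 held 1 GATA match, beginning 86 bases before the start, and 4 Klf-type matches. Rhag had 1 GATA match 31 bases before the start and Epb42 had 1 at 226 bases. Gata1 had 3 Klf-type matches and no GATA match of these letters in the window. Its window lies inside the interval given above for the gene, not at the outer end of that interval. Of the promoters not printed, Klf1 held 1 GATA match and Tspo2 held 2 overlapping Klf-type matches. In all, 4 of 6 had a GATA match, against 29.8% of 32851 promoters, and 3 of 6 a Klf-type match, against 49.5%. Such a match is letters only and was not tested for binding.

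The 8 genes did not move as 1 block from lung to lung. With group means removed, deviations over the 14 arrays had a median Pearson r of 0.31 (Spearman rho 0.31) over the 28 pairs of genes, from -0.42 to 0.85, and 11 pairs were above 0.5. All 11 were among Alas2, Slc4a1, Epb42, Rhag, Ank1 and Tspo2. The closest pairs were Ank1 with Tspo2 (r 0.85, rho 0.82), Rhag with Ank1 (r 0.81, rho 0.85), Alas2 with Slc4a1 (r 0.74, rho 0.64) and Epb42 with Rhag (r 0.72, rho 0.67). Gata1 went against Rhag (r -0.42, rho -0.45) and was near 0 with Ank1 (r 0.01). Rhag, Klf1 and Gata1 were among the dimmest 30% of probe sets. Whether their r reflects signal over background was not tested. These arrays share their normalization within a set, and the values are descriptions with no test and no pairs of other genes beside them.

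**Figure D3:**
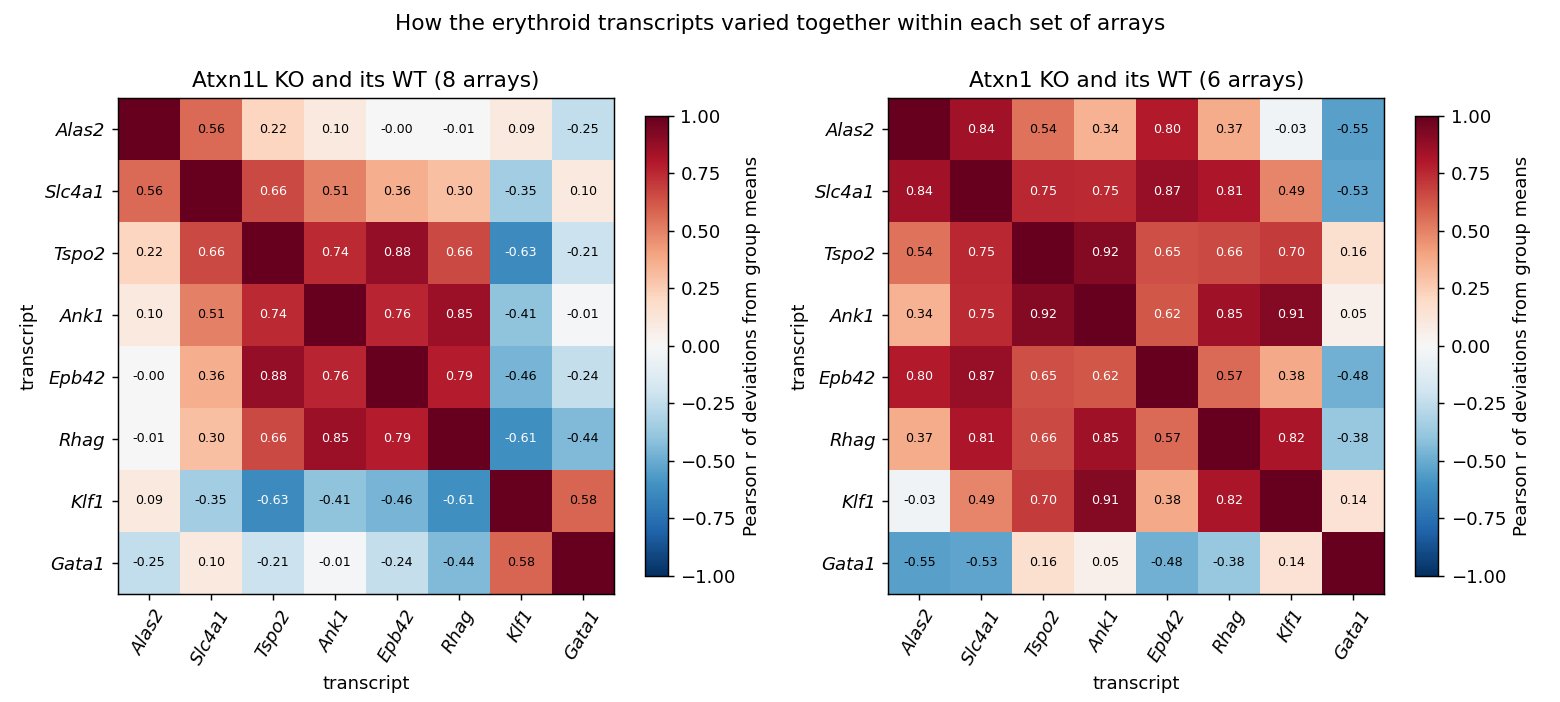
Pearson r of deviations from group means for every pair of the 8 transcripts (both axes), in the Atxn1L set (8 arrays, left) and the Atxn1 set (6 arrays, right). Ank1, Tspo2, Epb42 and Rhag go together in both sets, with r of 0.57 to 0.92, while Klf1 has r of -0.61 with Rhag on the left and 0.82 on the right. Rhag, Klf1 and Gata1 are among the dimmest 30% of probe sets.

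Both sets were also taken alone. The median r was 0.10 in the Atxn1L set and 0.60 in the Atxn1 set, and over 13 arrays it was 0.11 without Atxn1 WT replicate 3 and 0.51 without Atxn1L KO replicate 2. Klf1 had opposite signs in the sets: its r with Rhag was -0.61 in the Atxn1L set and 0.82 in the Atxn1 set, and with Ank1 -0.41 and 0.91. In the Atxn1 set much of the table moved this way: over all probe sets the median r with the mean of the 8 genes was 0.31 there, against -0.05 in the Atxn1L set. Ank1 with Rhag (0.85 in each set) and Epb42 with Tspo2 (0.88 in the Atxn1L set and 0.65 in the Atxn1 set) held in both. Klf1 and Rhag were among the dimmest 30% of probe sets, and signal over background was not known for them.

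Of all named genes outside the 8, those whose deviations were most like the mean of the 8 over the 14 arrays were Tmem159 (r 0.93), Mov10 (0.92), Il1f8, Puf60, Prss8, Ntrk2, Smad9, Nectin2, Snx15 and Ak3 (0.88 to 0.90). None of these is in the erythroid lists. Of the lists described below, the top 5% of probe sets by this r held 3 of 9 mast cell genes. It also held 2 of 10 heme synthesis and transport genes, 2 of 11 further membrane genes and 5 of 14 maturation genes. Each gene's likeness to the mean of the other 7 gave Ank1 the closest fit (r 0.90), then Tspo2 (0.82) and Slc4a1 (0.75), with Klf1 at 0.09 and Gata1 at -0.17.

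Alas2 was then taken alone, a choice made after its values were seen. The probe sets most like it over the 14 arrays were Tent5c, a poly(A) polymerase (r 0.89), and Ube2o, the ubiquitin ligase that clears proteins from maturing red cells (r 0.89), then Pgm5 and Fech. Fech, which inserts iron into heme as the last step of the pathway that Alas2 starts, had r of 0.87, with 0.65 in the Atxn1L set and 0.98 in the Atxn1 set. Bpgm, which makes the bisphosphoglycerate of red cells, had 0.76, the mitochondrial iron importer Slc25a37 0.72 and Bnip3l, which removes mitochondria from maturing red cells, 0.68. The same lists also hold genes with r near or below 0: it ran from -0.30 (Tmem14c) to 0.87 over the 10 heme genes, with Alad at 0.12 and Urod at 0.14, and from -0.08 (Trim58) to 0.89 over the 14 maturation genes, with Car1 at 0.07. The lung gene Ager, at 0.73, was as close as Slc25a37. All 8 neutrophil genes went the other way, with r from -0.67 (Mmp8) to -0.45 (Camp). In the Atxn1 set WT replicate 3 had the lowest Alas2, 12.16, and the highest mean of neutrophil genes, 11.54. The part of that array or of neutrophil content in these r was not tested. Over all probe sets the median r with Alas2 was -0.01.

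The rest of the erythroid programme was followed in lists, and 123 of their 137 genes, other cell types included, matched a measured probe set. Not 1 gene of any list passed over all probe sets in either knockout. Of 10 genes of heme synthesis and its transport, 5 were above 0 in the Atxn1L KO (median -0.01) and 8 in the Atxn1 KO (median 0.02). Slc25a37 had a log2 change of 0.01 in the Atxn1L KO and 0.25 in the Atxn1 KO, Fech -0.09 and 0.14, and Alad, the enzyme after Alas2, 0.11 and 0.00 (limma adjusted p of 0.662 to 1.00). Of 11 further membrane and skeleton genes, 8 were above 0 in the Atxn1L KO (median 0.05) and 9 in the Atxn1 KO (median 0.06). Kel, a blood group protein, had 0.13 and 0.22, and Tmod1, which caps actin filaments of the skeleton, -0.12 and 0.21.

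Of 12 genes listed as globins and their chaperone, 6 matched a probe set. Hba-a1, Hba-a2, Hbb-b1, Hbb-b2, Hbb-bs and the chaperone Ahsp did not. Those matched were Hbb-bt, Hbb-y, Hbb-bh1, Hba-x, Hbq1a and Hbq1b. Of these 6, 2 were above 0 in the Atxn1L KO (median -0.03) and 1, Hbb-bt, in the Atxn1 KO (median -0.08). The adult beta globin Hbb-bt had a log2 change of -0.10 (SE 0.09) in the Atxn1L KO and 0.28 (SE 0.15) in the Atxn1 KO, and the embryonic Hbb-y had -0.11 and -0.10. Globin copies are near-identical, so probes may not keep Hbb-bt apart from its neighbours. Of 11 erythroid factors, 8 were above 0 in the Atxn1L KO and 9 in the Atxn1 KO, with medians of 0.03 and 0.04. Lmo2, a partner of Gata1 complexes that endothelium also expresses, had -0.17 (SE 0.05, limma adjusted p = 0.394) and 0.09, and Zfpm1, the cofactor that binds Gata1, 0.13 and 0.06.

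Genes of red cell maturation were above 0 in 8 of 14 in the Atxn1L KO (median 0.00) and in 12 of 14 in the Atxn1 KO (median 0.08). Bnip3l had a log2 change of -0.25 (SE 0.06, limma adjusted p = 0.327) in the Atxn1L KO and 0.06 in the Atxn1 KO, and Bpgm -0.11 and 0.22. Car1, a carbonic anhydrase of early erythroid cells, had 0.35 (SE 0.11, limma adjusted p = 0.420) and 0.07. Iron uptake genes with the erythropoietin receptor, 7 in all, had medians of 0.03 and 0.02. The iron regulatory proteins Ireb2 and Aco1 had log2 changes of -0.10 and 0.07 in the Atxn1L KO and -0.02 and 0.02 in the Atxn1 KO.

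**Figure D4:**
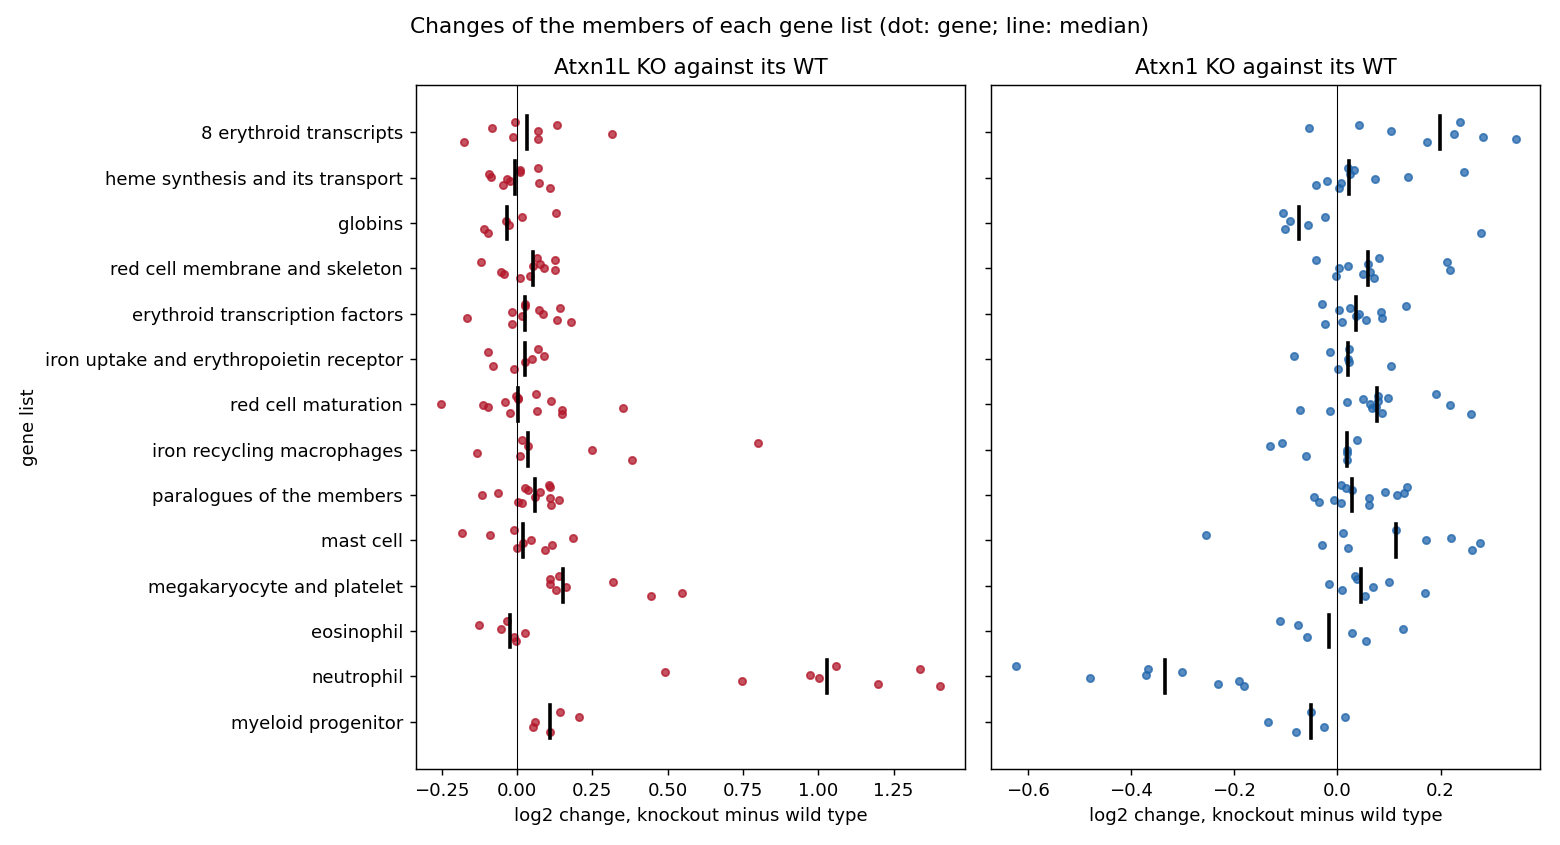
Log2 change (knockout minus WT, horizontal axes of different scale) of every matched gene of each list (vertical axis), as dots, with the list's median as a line, in the Atxn1L KO (left) and the Atxn1 KO (right). The 8 erythroid transcripts have medians of 0.03 and 0.20, and neutrophil genes medians of 1.03 and -0.33. The neutrophil list mean differed by -0.34 in the Atxn1 KO, and by 0.38 without WT replicate 3.

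Related genes of other tissues were measured beside the members. Among 13 of them the changes ran from -0.12 to 0.14 in the Atxn1L KO and from -0.05 to 0.13 in the Atxn1 KO. Alas1, the housekeeping form of the enzyme, had 0.11 in the Atxn1L KO, where Alas2 had -0.18, and 0.06 in the Atxn1 KO. Tspo had 0.10 and 0.01, Slc4a2 0.02 and 0.01, Ank2 -0.12 and 0.11, Rhbg 0.11 and 0.06, Klf2 0.08 and 0.09, Gata2 0.03 and 0.02, and the transglutaminase Tgm2, a relative of Epb42, 0.14 and -0.01.

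Other cells that share genes or blood with the red lineage were counted in the same way. Of 9 mast cell genes, 6 were above 0 in the Atxn1L KO (median 0.02, list mean per array 7.75 to 7.88 in KO and 7.67 to 7.88 in WT) and 7 in the Atxn1 KO (median 0.11, 8.58 to 8.67 in KO and 8.50 to 8.62 in WT). Of 8 megakaryocyte and platelet genes, 8 were above 0 in the Atxn1L KO (median 0.15, 8.56 to 9.21 in KO and 8.45 to 8.67 in WT) and 7 in the Atxn1 KO (median 0.05, 9.51 to 9.64 in KO and 9.37 to 9.68 in WT). The platelet chemokines Pf4 and Ppbp had log2 changes of 0.44 and 0.55 in the Atxn1L KO and 0.05 and 0.17 in the Atxn1 KO. KO replicate 1 was the highest array of the Atxn1L set for this list, and without it the difference of the list mean was 0.10, against 0.25 with it. The mast cell proteases Mcpt4 and Cpa3 had 0.02 and 0.09 in the Atxn1L KO and 0.28 and 0.26 in the Atxn1 KO, while Hdc, the enzyme that makes histamine, had -0.09 and -0.26. Of 5 myeloid progenitor genes the medians were 0.11 and -0.05. Of 6 eosinophil genes the medians were -0.02 and -0.02. Neutrophil genes were above 0 in 8 of 8 in the Atxn1L KO (median 1.03) and in 0 of 8 in the Atxn1 KO (median -0.33). Both values leaned on 1 array. The difference of the list mean was 1.03 in the Atxn1L KO and 0.60 without KO replicate 1. In the Atxn1 KO it was -0.34, and 0.38 without WT replicate 3, since the other WT lay below every knockout. The part of these cells in the erythroid values was not tested.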

How the data were processed

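The deposited values are log2 RMA levels. Per the submitters' processing notes and the labels, the authors used RMA and limma and ran RMA apart for the Atxn1L and the Atxn1 arrays; versions and the probe set definition are not given in the sources used here. Probe sets were named from the platform's gene table: 18786 of 21212 had 1 symbol, 6 several and 2420 none. Each knockout was set against its own WT by lmFit and eBayes without covariates (limma 3.58.1, R 4.3.3) over all probe sets of a set, with Benjamini-Hochberg adjustment and a threshold of 0.05, two-sided, and no filter. The step was tested on simulated data. SE and intervals are limma's, SD is between arrays. Precision is limited by how few arrays there are, and p-values rest on the spread between these samples. Correlations use deviations from group means. Named from each list were at most 3 genes of smallest p, related genes of the members, and the 10 genes most like the member mean. Other genes named, those set beside Alas2 among them, were chosen after their values were seen. Members and 14 lists were chosen with earlier results of these data known. Alternatives covered pairing, eBayes prior, array weights, a filter, normalization, Xist and leaving out arrays, for 5 lists of other cells an addition after seeing the data. Genes the platform's table does not name were not analysed here.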

Additional observations from a re-analysis of the deposited data

Results flagged for a closer look

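Gata1 had 1 array far from the others of its group in both groups of the Atxn1L set. In the knockouts replicate 1 was at a log2 level of 6.61, below the other arrays at 6.68 to 6.69, and the gap was 0.88 of the group's range of levels. In their WT replicate 4 was at 6.31, below the others at 6.58 to 6.63, with a gap of 0.86 of the range. The range within the knockouts was small, so that array still lay close to the rest. Both gaps are above the 95% critical value of Dixon for 4 arrays. Chance passes it in about 1 in 20 groups, and 16 groups were looked at.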

How the results depend on the processing

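limma called 0 of the 8 erythroid genes in each knockout, and in the difference between them, under every alternative run. In fits of a single knockout the smallest adjusted p was 0.138, in the Atxn1 KO with array weights. In 223 of 234 fits of single genes under these alternatives the direction was kept. A filter on the dimmest 30% of probe sets left 5 of the 8 genes, without Rhag, Klf1 and Gata1. The direction turned with the Xist level as a covariate for Epb42 (0.041) and Tspo2 (0.014) in the Atxn1L KO. On leaving out 1 array it turned for Epb42 (-0.085 to 0.048) and Tspo2 (-0.048 to 0.037) in the Atxn1L KO and for Klf1 (-0.14 to 0.034) in the Atxn1 KO. The median of the 8 genes in the Atxn1 KO was 0.32 with array weights, 0.046 among arrays of low Xist and 0.42 among arrays of high Xist, the last pair chosen after seeing the data. It ran from 0.11 to 0.25 on leaving out 1 array, and in the Atxn1L KO from -0.002 to 0.074. Leaving out 1 array, added after seeing the data, also turned the list mean difference in the Atxn1L KO for mast cells (-0.027 to 0.047). In the Atxn1 KO it turned it for neutrophils (-0.73 to 0.38), iron recycling macrophages (-0.072 to 0.0058), platelets (-0.021 to 0.13) and myeloid progenitors (-0.16 to 0.054). With the replicate block 0 of 8 genes were called in either knockout. Arrays of the same number had deviations that correlated at -0.42 to 0.42. No arrays of different number were set beside them, so these r cannot decide whether equal numbers mark pairs. Pair and litter membership of each array was unknown here, and the main fits were unpaired. The cause of the shifts on changing the processing or leaving out arrays was not tested. The deposited table has no detection call, so signal over background was not known for the dim genes.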

Other observations

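Some genes that varied with Alas2 from array to array also had changes below 0 in the Atxn1L KO and above 0 in the Atxn1 KO, a pattern picked after the values were seen. Tent5c had a log2 change of -0.10 in the Atxn1L KO and 0.21 in the Atxn1 KO, a difference of -0.31 (SE 0.10, limma adjusted p = 1.00). For Bpgm the difference was -0.33 (SE 0.10) and for Bnip3l -0.32 (SE 0.10), both with a limma adjusted p of 1.00. Ube2o, also close to Alas2, did not have the pattern, with 0.06 in the Atxn1L KO and 0.19 in the Atxn1 KO. Genes less like Alas2 had it too. Tmod1 (r with Alas2 -0.14) had -0.12 and 0.21, a difference of -0.33 (SE 0.09). Lmo2 (r 0.24) had -0.17 and 0.09, a difference of -0.25 (SE 0.08). The share of all probe sets with this pattern was not counted.

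Macrophage genes that recycle the iron of old red cells were looked at as a list. In the Atxn1L KO the median log2 change of its 7 genes was 0.04, beside 0.03 for the 8 erythroid genes, and none passed the test. Slc11a1, the metal transporter of phagosomes, had 0.80 (SE 0.14, limma adjusted p = 0.192), Hmox1, which breaks down heme, 0.38 and Spic, a factor of these macrophages, 0.25. Vcam1 had 0.04, Blvra 0.02, Slc40a1 0.01 and the haemoglobin scavenger receptor Cd163 -0.13. KO replicate 1, the array of highest neutrophil genes, had the highest list mean at 8.87, against 8.55 to 8.63 in the other knockouts and 8.41 to 8.47 in WT. The difference of the list mean was 0.19, and 0.12 without that array. In the Atxn1 KO the median was 0.02.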
